A study of Rattus norvegicus with 9 samples.

Results

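The genes of the proteasome were followed in HEI-OC1 cells given cisplatin or neomycin. A gene was taken as a proteasome gene when its symbol in the deposited table was Psm followed by a, b, c, d or e and a number, which gave 42 of 19608 genes. By role these were 7 alpha and 7 constitutive beta subunits of the 20S core, 4 inducible or tissue-specific beta subunits, 6 ATPases, 3 non-ATPases of the 19S base, 8 subunits of the 19S lid, 3 assembly chaperones that carry Psmd symbols, and 4 activators. Of the 45 genes of the table under the KEGG proteasome term, 40 were among them. Psmd5 and Psmd10 were taken by symbol alone, and Adrm1, Pomp, Psmf1, Sem1 and LOC100360846 were in the KEGG term alone.

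The proteasome degrades proteins that carry ubiquitin. Its barrel-shaped 20S core holds the proteolytic sites inside rings of beta subunits, the alpha rings gate the entrance, and the 19S particle on either end recognises ubiquitin, removes it and threads the substrate in through a ring of ATPases. Under interferons the catalytic beta subunits are replaced by the inducible subunits Psmb8, Psmb9 and Psmb10, which form the immunoproteasome. When proteasome activity falls short, the transcription factor NRF1 (Nfe2l1) raises the subunit genes together.

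HEI-OC1 is an immortalized mouse line from the hearing epithelium of the cochlea, the organ of Corti, and the labels call it hair cell-like. The groups were cells given cisplatin, a platinum drug that crosslinks DNA, cells given neomycin, an aminoglycoside antibiotic, and cells given phosphate-buffered saline (PBS), each for 24 h with 3 libraries. Both drugs damage hair cells in patients, and the series set them side by side on 1 cell line. The sources used here give no doses. The cell-line label ends in another number in each sample, whereas the design text names HEI-OC1 only. Nothing says that replicates came from separate cultures, so the spread behind each p-value is that between these samples alone and may be technical.

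Levels are FPKM, fragment numbers divided by gene model length and library size, as the authors computed them. The scaling totals, worked out from the values, lay between 27516629 and 40221089 reads per library. The labels and the annotation of the table are of rat while mm10, a mouse build, stands in the submitters' processing notes, so the order of levels between genes is less certain than a change of 1 gene between groups. Of 11 hair cell markers in the table, Myo7a and Myo6 reached the test, and Pou4f3, Otof, Slc26a5 and Espn had at most 2 reads in any library. The 7 fibroblast markers summed to 1308 to 1456 FPKM in cisplatin libraries, 4015 to 4067 FPKM in neomycin and 4731 to 5116 FPKM in PBS, with Col1a1 averaging 452 FPKM with cisplatin, 1599.5 FPKM with neomycin and 1996 FPKM in PBS. The collagens made up most of these sums. Of the 6 tested markers 1 rose and 5 fell with cisplatin, where 47.5% and 30.5% of all tested genes did. The 1 rise, that of Thy1 by 0.10, was not called under any of the 3 scalings given below. With neomycin 3 rose (Thy1 by 0.50, Lum by 0.42 and Pdgfra by 0.24) and 2 fell, where 37.5% and 28.7% of all tested genes did. The 8 leukocyte markers in the table summed to at most 3.39 FPKM in any library, with Cd68 and Fcer1g at 1.68 and 1.31 FPKM with cisplatin, against 0.192 and 0.0506 FPKM with neomycin and 0.204 and 0.157 FPKM in PBS. The part of these markers in the results was not tested. In bulk RNA, fewer cells of a type and less RNA per cell cannot be told apart.

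With cisplatin most proteasome genes were higher than in PBS, and with neomycin most of those that changed were lower. Genes that averaged 1 FPKM or more were tested on log2(FPKM + 1) with limma, and called at a Benjamini-Hochberg adjusted p under 0.05 over 10532 genes. The test covered 41 proteasome genes, with 289 to 22325 reads per library. The exception was Psmb11, the subunit of the thymus, which had 0 to 2 reads per library and was listed at 0 in all neomycin libraries. With cisplatin 33 of the 41 rose (80.5%) and 5 fell (12.2%), where 47.5% and 30.5% of all tested genes did. With neomycin 9 rose (22.0%) and 21 fell (51.2%), against a background of 37.5% and 28.7%. Set directly against neomycin, cisplatin gave 29 genes higher (70.7%) and 6 lower (14.6%), with 45.0% and 36.6% of all tested genes. Both drugs were compared with the same PBS libraries, so the 2 sets of changes are not independent.

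The changes were small in size. The median log2 fold change of the 41 genes was 0.28 with cisplatin, where the median of all tested genes was itself 0.12, and -0.13 with neomycin, where it was 0.04. Between the 2 drugs the median was 0.41, against 0.07 over all tested genes. The change relative to other genes was examined with 3 further scalings of the libraries: trimmed mean of M-values (TMM) factors, quantile normalization and centring on the median gene. The cisplatin median then stood at 0.14, 0.11 and 0.16, and the neomycin median at -0.21, -0.08 and -0.19. Taken 1 at a time, the scalings gave 21, 18 and 22 cisplatin rises among the 41 genes, where 37.2%, 38.6% and 38.0% of all tested genes rose. Under all 3 scalings 17 of the cisplatin rises remained called (41.5%), near the 35.8% of all tested genes, so the count that held under all 3 does not stand out. The 5 falls with cisplatin all remained (12.2%, against 30.3% of all tested genes). With neomycin 19 falls remained (46.3%, against 28.2% of all tested genes) and 6 rises (14.6%, against 28.6%), and between the drugs 23 genes remained higher with cisplatin (56.1%, against 38.0%) and 6 lower (14.6%, against 35.0%).

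**Figure D1:**
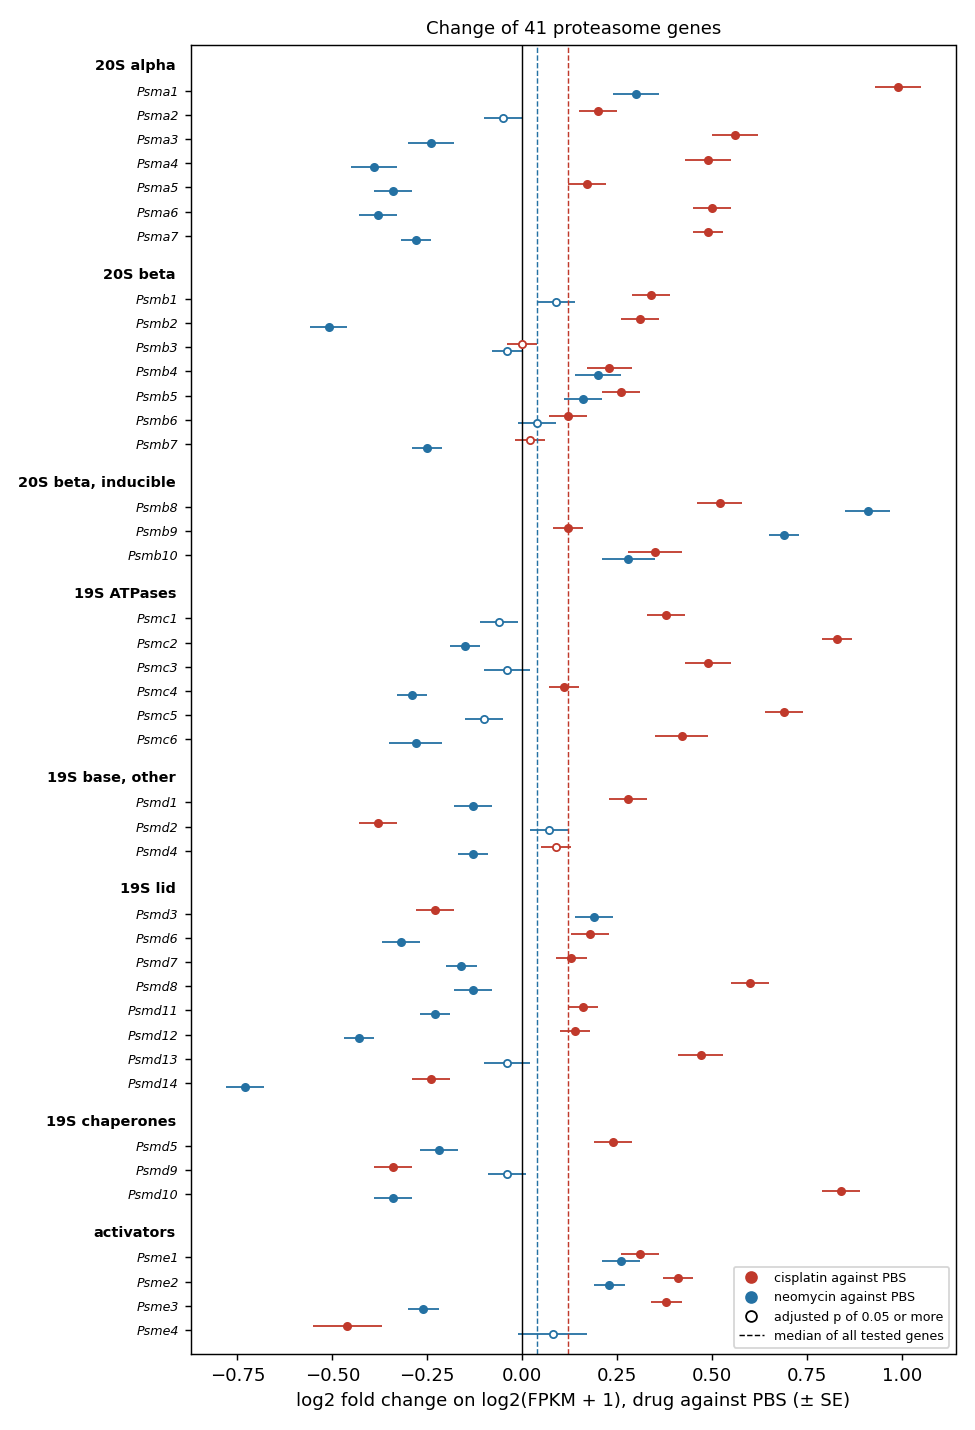
Log2 fold change on log2(FPKM + 1) of the 41 tested proteasome genes, by role, with cisplatin (red) and with neomycin (blue) against PBS; bars are ± SE, open points missed the threshold of 0.05, and dashed lines mark the median of all tested genes (0.12 and 0.04). Most cisplatin points lie right of the cisplatin line and most neomycin points left of 0, while Psmb8 and Psmb9 lie far to the right with neomycin.

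The alpha subunits form the outer rings of the core, and 7 of 7 rose with cisplatin, with a median log2 fold change of 0.49. With neomycin 5 of 7 fell and 1 rose, with a median of -0.28. The medians kept their signs under the 3 scalings (0.29 to 0.37 and -0.37 to -0.24), although the cisplatin rises of Psma2 and Psma5 did not hold under all of them and Psma5 stood at -0.01 after quantile normalization. Of all tested genes 47.5% rose and 30.5% fell with cisplatin, and 37.5% rose and 28.7% fell with neomycin. Under all 3 scalings 35.8% and 30.3% remained with cisplatin, and 28.6% and 28.2% with neomycin. The same shares stand beside the counts of the other roles below. Psma1 was apart from its ring: it measured 156, 139 and 148 FPKM with cisplatin, 91.9, 88.2 and 92.9 FPKM with neomycin, and 67.4, 79.9 and 74.9 FPKM in PBS. The 3 groups did not overlap, and the rise was 0.99 ± 0.06 (log2 fold change ± SE, limma adjusted p = 2.0e-09) with cisplatin and 0.30 ± 0.06 (adjusted p = 5.5e-04) with neomycin. No other alpha subunit rose with neomycin.

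The alpha subunits Psma3, Psma4, Psma5, Psma6 and Psma7 moved in opposite directions with the 2 drugs. Psma4 measured 109, 110.0 and 118 FPKM with cisplatin, 60.4, 56.0 and 65.5 FPKM with neomycin, and 75.8, 80.6 and 82.5 FPKM in PBS. Psma6 had 129, 122 and 135 FPKM with cisplatin, 68.5, 67.8 and 71.7 FPKM with neomycin, and 87.8, 92.6 and 91.8 FPKM in PBS. In both genes all cisplatin libraries lay above all PBS libraries and all neomycin libraries below them, and the cisplatin level was 1.85-fold and 1.84-fold the neomycin level. Psma7, the most abundant alpha transcript per length, had 296, 293 and 303 FPKM with cisplatin, 185, 171 and 165 FPKM with neomycin, and 217, 210.4 and 206 FPKM in PBS. Psma3, the least abundant, had 65.4, 62.9 and 65.3 FPKM with cisplatin, 33.4, 36.2 and 40.8 FPKM with neomycin, and 41.2, 44.5 and 44.8 FPKM in PBS. Neither gene had overlapping groups. Psma5 changed less with cisplatin (102, 96.3 and 106 FPKM) than with neomycin (69.5, 70.1 and 73.1 FPKM), against 84.9, 94.2 and 91.2 FPKM in PBS, and its log2 fold changes were 0.17 ± 0.05 and -0.34 ± 0.05. Psma2 averaged 177 ± 8.50 FPKM with cisplatin, 149 ± 6.67 FPKM with neomycin and 154 ± 8.90 FPKM in PBS (SD, n = 3 each), and its neomycin and PBS libraries overlapped.

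The constitutive beta subunits changed less as a group. With cisplatin 5 of 7 rose, with a median log2 fold change of 0.23, and with neomycin 2 rose and 2 fell, with a median of 0.04. These directions depended on scaling: under all 3 scalings 1 rise with cisplatin (Psmb1) and the 2 neomycin falls (Psmb2 and Psmb7) remained called, and the neomycin median was -0.05 with TMM factors and -0.02 with median centring. Of all tested genes 47.5% rose with cisplatin, and 37.5% rose and 28.7% fell with neomycin. Under all 3 scalings 35.8% remained higher with cisplatin and 28.2% lower with neomycin, so the neomycin falls of the 7 lie near the share. Psmb2, a structural subunit of the inner ring, measured 167, 163 and 181 FPKM with cisplatin, 100.0, 91.2 and 94.9 FPKM with neomycin, and 134, 132 and 143 FPKM in PBS. Its groups did not overlap, and the fall with neomycin was among the largest of all members, at -0.51 ± 0.05 (limma adjusted p = 1.2e-06). Psmb1, another structural subunit, averaged 135 ± 1.98, 113 ± 5.74 and 106 ± 7.26 FPKM in cisplatin, neomycin and PBS libraries. Psmb4, the most abundant beta transcript per length, averaged 322 ± 7.65 FPKM with cisplatin, 315 ± 17.3 FPKM with neomycin and 275 ± 23.4 FPKM in PBS (SD, n = 3 each). Psmb3 was the only 1 of the 41 called with neither drug against PBS, at 121 ± 1.32 FPKM with cisplatin, 118 ± 1.13 FPKM with neomycin and 121 ± 6.09 FPKM in PBS, and it passed the threshold as lower under all 3 scalings with cisplatin (-0.21 to -0.13) and with TMM factors with neomycin (-0.12). The call of Psmb1 with neomycin depended on PBS replicate 1, without which its log2 fold change was 0.14 (adjusted p = 0.0228) in place of 0.09 (adjusted p = 0.154).

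The 3 catalytic subunits of the standard core had log2 fold changes of -0.25 to 0.26 against PBS. Psmb5, which carries the chymotrypsin-like activity, had 154, 157 and 149 FPKM with cisplatin, 143, 143 and 142 FPKM with neomycin, and 137, 123 and 123 FPKM in PBS. Psmb6, which carries the caspase-like activity, had 173, 168 and 173 FPKM with cisplatin, 171, 163 and 154 FPKM with neomycin, and 164, 157 and 153 FPKM in PBS. Psmb7, which carries the trypsin-like activity, had 225, 223 and 227 FPKM with cisplatin, 192, 189 and 181 FPKM with neomycin, and 233, 218 and 215 FPKM in PBS. Psmb5 was higher than in PBS in all libraries of both drugs, by 0.26 ± 0.05 and 0.16 ± 0.05, but neither call held under all 3 scalings. The log2 fold change of Psmb6 with cisplatin, 0.12 ± 0.05 (limma adjusted p = 0.0295), turned to -0.03, -0.09 and -0.01 under TMM factors, quantile normalization and median centring. It also missed the threshold without PBS replicate 2 (adjusted p = 0.0743), PBS replicate 3 (0.11), cisplatin replicate 1 (0.0823) or cisplatin replicate 3 (0.0778). Psmb7 was lower with neomycin (log2 fold change -0.25 ± 0.04, adjusted p = 1.6e-04), with no overlap, and remained called under all 3 scalings. With cisplatin Psmb7 had 0.02 ± 0.04, and passed the threshold as lower with TMM factors (-0.13, adjusted p = 0.0247) and quantile normalization (-0.14, adjusted p = 0.00309). Between the drugs Psmb5 missed the threshold at 0.10 ± 0.05 (adjusted p = 0.053) but passed it without PBS replicate 1 (0.015) or cisplatin replicate 3 (0.0483), and Psmb6 (0.08 ± 0.05) passed it without neomycin replicate 1 (0.0378). After quantile normalization both passed it in the other direction, as lower with cisplatin, at -0.13 (adjusted p = 0.0138) and -0.15 (adjusted p = 0.00337).

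The promoters of catalytic and structural beta genes are shown because NRF1 is known to act on proteasome genes through antioxidant response elements. Promoter sequences of the rat genes, 250 bases before the start, came from RefSeq (build GRCr8) and matched 37 of the 42 genes. The element was searched as TGACNNNGC, on both strands. It was found before 7 of 37 proteasome genes (18.9%), against 10.2% of all 27457 promoters and 12.6% of those of tested genes: Psma3, Psmb2, Psmb5, Psmb6, Psmd1, Psmd9 and Psme4. The 3 matches of constitutive beta genes follow, in 30 bases on the strand of the gene, with the match in capitals. They lie at chr5:144254980-144255009 (plus strand), chr15:32047420-32047449 (minus strand) and chr10:55737854-55737883 (plus strand), and the match begins 68, 60 and 24 bases before the start.
Psmb2: cccgcgccaaTGACCGGGCggtcgcatatc
Psmb5: cgtgaagctgTGACGTCGCggcgttgcccg
Psmb6: ctaaagagagTGACGGAGCgctttacgacc
The 7 genes did not move alike: with cisplatin Psma3 and Psmb2 had log2 fold changes of 0.56 and 0.31, and Psmd9 and Psme4 had -0.34 and -0.46. The CCAAT box, the letters bound by NF-Y, was found on either strand before 18 of the 37 (48.6%), against 34.3% of all promoters and 36.8% of those of tested genes, and 5 of these were alpha subunits. In Psmb2 a CCAAT match and the TGACNNNGC match share 1 base. A match describes the letters alone and says nothing of binding, and cells of a mouse line need not share the rat sequence.

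All 3 tested inducible subunits rose with neomycin, where 37.5% of all tested genes did, and 2 of them rose more than with cisplatin. In the rest of the core Psma1, Psmb4 and Psmb5 also rose with neomycin, by 0.30, 0.20 and 0.16. These genes had larger values with cisplatin, at 0.99, 0.23 and 0.26. Psmb8, the inducible counterpart of Psmb5, had 12.6, 12.4 and 12.3 FPKM with cisplatin, 17.5, 16.8 and 15.5 FPKM with neomycin, and 9.26, 7.74 and 8.07 FPKM in PBS. Psmb9, the counterpart of Psmb6, had 28.2, 28.1 and 27.6 FPKM with cisplatin, 42.7, 42.8 and 40.7 FPKM with neomycin, and 26.5, 25.8 and 24.8 FPKM in PBS. For both genes the neomycin libraries lay above all others without overlap. The rises with neomycin were 0.91 ± 0.06 for Psmb8 (limma adjusted p = 5.5e-08) and 0.69 ± 0.04 for Psmb9 (adjusted p = 2.0e-08), and both were lower with cisplatin than with neomycin (log2 fold changes -0.39 ± 0.06 and -0.57 ± 0.04). Psmb10, the counterpart of Psmb7, had 45.2, 35.9 and 40.1 FPKM with cisplatin, 40.4, 36.6 and 37.7 FPKM with neomycin, and 31.8, 30.6 and 31.7 FPKM in PBS. Its 2 drug groups overlapped, and both lay above PBS.

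The 3 neomycin rises remained called under all 3 scalings, and of the cisplatin rises that of Psmb8 alone did (0.52 ± 0.06, limma adjusted p = 4.4e-06). Psmb9 with cisplatin, at 0.12 ± 0.04 (adjusted p = 0.0249), stood at -0.03, -0.05 and -0.01 under TMM factors, quantile normalization and median centring. It missed the threshold without PBS replicate 3 (adjusted p = 0.103), cisplatin replicate 1 (0.0708) or cisplatin replicate 2 (0.0646), and with voom on whole reads (0.0992). Psmb10 differed between the drugs only without cisplatin replicate 2, with a log2 fold change of 0.15 in place of 0.07 (adjusted p = 0.0362 in place of 0.332).

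A ratio of 2 genes within a library does not depend on a factor per library, although quantile normalization can change it. The FPKM of Psmb9 was 16.3, 16.8 and 15.9% of that of Psmb6 with cisplatin, 24.9, 26.2 and 26.4% with neomycin, and 16.2, 16.5 and 16.2% in PBS. The ratio of Psmb8 to Psmb5 was 8.18, 7.88 and 8.23% with cisplatin, 12.2, 11.7 and 10.9% with neomycin, and 6.74, 6.27 and 6.56% in PBS. For Psmb10 over Psmb7 it was 20.1, 16.1 and 17.6% with cisplatin, 21.1, 19.4 and 20.9% with neomycin, and 13.6, 14.0 and 14.8% in PBS. With neomycin all 3 ratios were above PBS without overlap (exact permutation test, two-sided, p = 0.1, the smallest that 3 against 3 libraries allow). With cisplatin the ratios of Psmb8 and Psmb10 lay above PBS without overlap (exact p = 0.1 each), while that of Psmb9 overlapped PBS (exact p = 0.9). In all libraries the inducible transcript was the lower of each pair per length, and without a measure of protein the ratio does not give the makeup of particles.

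**Figure D2:**
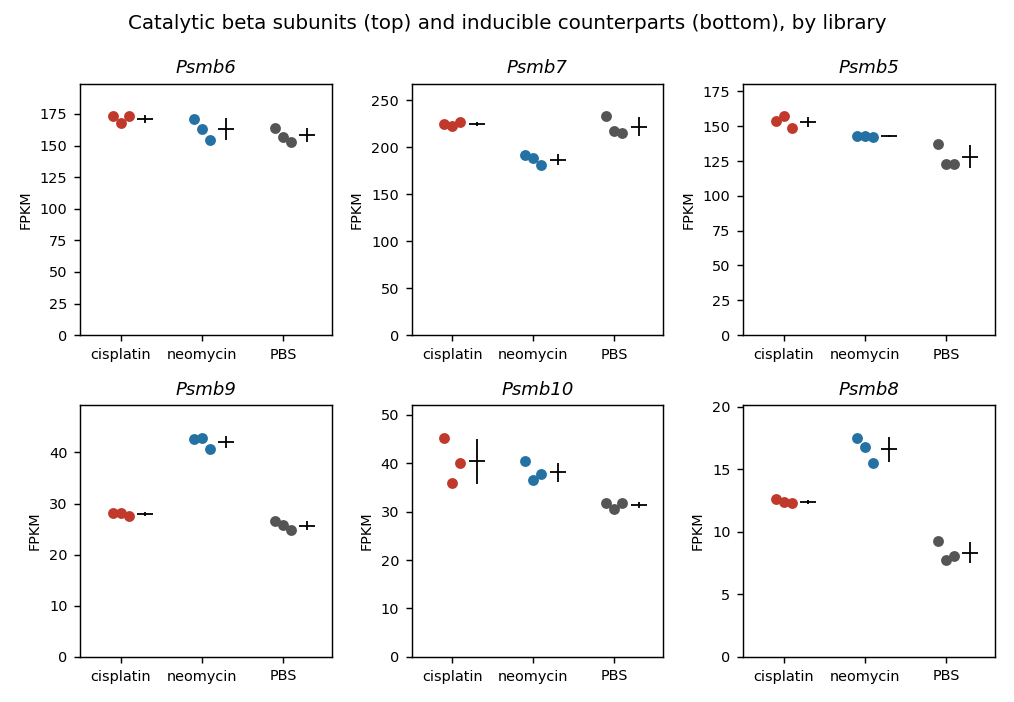
FPKM of the catalytic subunits Psmb6, Psmb7 and Psmb5 (top) and of their inducible counterparts Psmb9, Psmb10 and Psmb8 (bottom) in each of 3 cisplatin, 3 neomycin and 3 PBS libraries; bars beside the points are mean ± SD, and every axis starts at 0. Psmb9 and Psmb8 are highest in the neomycin libraries, at 40.7 to 42.8 and 15.5 to 17.5 FPKM, while Psmb6 and Psmb5 differ little between groups.

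In the RefSeq table Psmb8 and Psmb9 lie between and beside the peptide transporter genes, in the order Tap2, Psmb8, Tap1, Psmb9. Tap2 was also higher with neomycin (0.36 ± 0.07, limma adjusted p = 5.8e-04) and had 0.06 ± 0.07 with cisplatin (adjusted p = 0.428). Tap1 had 0.11 ± 0.06 with neomycin (adjusted p = 0.0849) and 0.13 ± 0.06 with cisplatin (adjusted p = 0.0466). That cisplatin value turned to -0.01 with TMM factors and -0.02 with quantile normalization. It missed the threshold without cisplatin replicate 1 or 2, neomycin replicate 2 or 3, or PBS replicate 1 or 2 (limma adjusted p = 0.0513 to 0.214). Of 14 tested genes of antigen processing and the interferon response, 7 rose and 3 fell with cisplatin (47.5% and 30.5% of all tested genes), and 6 rose and 2 fell with neomycin (37.5% and 28.7% of all tested genes), so the rises lie near the background with both drugs. Of these, 5 and 3 remained under all 3 scalings with cisplatin (35.8% and 30.3% of all tested genes), and 4 and 2 with neomycin (28.6% and 28.2%). Irf1, an interferon-induced activator of immunoproteasome genes, averaged 96.2 ± 2.54 FPKM with cisplatin, 27.4 ± 0.112 FPKM with neomycin and 27.3 ± 1.37 FPKM in PBS (SD, n = 3 each). Isg15, a ubiquitin-like protein induced by interferon, averaged 13.8 ± 0.840 FPKM with cisplatin, 3.61 ± 0.0487 FPKM with neomycin and 3.53 ± 0.596 FPKM in PBS. These 2 genes thus rose with cisplatin (by 1.78 ± 0.05 and 1.72 ± 0.08), and had log2 fold changes of 0.00 and 0.04 with neomycin, where Psmb8 and Psmb9 rose most. Stat2, a component of the interferon-activated factor, and Ifi35, an interferon-induced gene, went the other way: with neomycin they rose by 0.45 ± 0.05 and 0.50 ± 0.06, and with cisplatin they had -0.25 ± 0.05 and -0.06 ± 0.06.

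The interferon-type element, searched on both strands in the same windows as GAAA, any 2 bases and GAAA, was found before 5 of 37 proteasome genes (13.5%), against 3.29% of all promoters and 2.62% of those of tested genes. The 5 were Psma4, Psmb3, Psmb10, Psmd7 and Psme2. The matches of Psmb10 and Psme2, both known as interferon-induced genes, are shown with the match in capitals. They lie at chr19:50743346-50743375, chr19:50743293-50743322 and chr15:33052785-33052814 (GRCr8, minus strand) and begin 73, 17 and 53 bases before the start.
Psmb10 upstream: aagcaaaggcGAAAGTGAAAgagaagatgc
Psmb10 downstream: ctaagtggggggtGAAAGCGAAAgtaggaa
Psme2: cctggagagtGAAAGCGAAAgctggggctg
Psmb10 and Psme2 rose with both drugs, although the cisplatin rise of Psmb10 was lost after quantile normalization. The 5 genes with a match did not move alike: with neomycin Psma4 and Psmd7 fell (-0.39 and -0.16) and Psmb3 had -0.04. Psmb8 and Psmb9, which rose most with neomycin, have no such letters in these windows.

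The ATPases form the ring of the 19S base that unfolds substrates, and 6 of 6 rose with cisplatin, with a median log2 fold change of 0.45. With neomycin 3 fell and none rose, with a median of -0.12; with TMM factors and with median centring 5 fell, with medians of -0.21 and -0.19, Psmc1 and Psmc5 being the further ones. Under the 3 scalings 5 of the 6 cisplatin rises and all 3 neomycin falls remained called, and the exception, Psmc4 with cisplatin, turned to between -0.07 and -0.01. Of all tested genes 47.5% rose with cisplatin and 28.7% fell with neomycin, and 35.8% and 28.2% remained so under all 3 scalings. Psmc2 measured 253, 249 and 252 FPKM with cisplatin, 129.9, 126 and 126 FPKM with neomycin, and 144, 144 and 137 FPKM in PBS. Psmc5 had 201, 192 and 195 FPKM with cisplatin, 118, 113 and 109 FPKM with neomycin, and 128, 122 and 114 FPKM in PBS. The cisplatin libraries of both genes lay far above all others. On FPKM + 1 the cisplatin level of Psmc2 was 1.97-fold that of neomycin (0.98 ± 0.04, limma adjusted p = 1.8e-11). Psmc1 averaged 177 ± 2.42 FPKM with cisplatin, 130.3 ± 5.59 FPKM with neomycin and 136 ± 7.94 FPKM in PBS (SD, n = 3 each).

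Psmc6, the least abundant ATPase transcript per length, had 48.8, 47.5 and 52.1 FPKM with cisplatin, 28.7, 32.1 and 29.4 FPKM with neomycin, and 32.3, 38.8 and 39.6 FPKM in PBS. Psmc4 had 106, 107 and 108 FPKM with cisplatin, 83.9, 79.9 and 77.3 FPKM with neomycin, and 102, 99.8 and 94.4 FPKM in PBS. Psmc6 and Psmc4 fell with neomycin without overlap (-0.28 ± 0.07 and -0.29 ± 0.04). The cisplatin call of Psmc4 (0.11 ± 0.04, adjusted p = 0.0269) was lost without PBS replicate 3 (limma adjusted p = 0.126), cisplatin replicate 2 (0.0618) or cisplatin replicate 3 (0.0713). Psmc3, the most abundant, averaged 338 ± 7.06 FPKM with cisplatin, 234 ± 17.1 FPKM with neomycin and 241 ± 22.4 FPKM in PBS. Psmc5 missed the threshold with neomycin at -0.10 ± 0.05 (adjusted p = 0.0904), and passed it with TMM factors (-0.18), with median centring (-0.16) and without PBS replicate 3 (-0.14, adjusted p = 0.0226).

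The 3 non-ATPase subunits of the base did not follow the ATPases together: with cisplatin 1 rose and 1 fell, and with neomycin 2 fell. Psmd2, the scaffold that binds ubiquitin-like domains, had 158, 152 and 151 FPKM with cisplatin, 215, 213 and 205 FPKM with neomycin, and 214, 198 and 192 FPKM in PBS. Psmd1, the other scaffold, had 73.2, 73.4 and 77.4 FPKM with cisplatin, 53.0, 55.8 and 59.0 FPKM with neomycin, and 60.4, 62.5 and 60.4 FPKM in PBS. The 2 scaffolds thus changed in opposite directions: with cisplatin Psmd2 fell (-0.38 ± 0.05, limma adjusted p = 2.7e-06) and Psmd1 rose (0.28 ± 0.05, adjusted p = 6.2e-05). Of the 3 scalings quantile normalization alone removed the rise of Psmd1, and none removed the fall of Psmd2. With neomycin Psmd1 had -0.13 ± 0.05 (adjusted p = 0.0269), a call lost without PBS replicate 2 (0.089), neomycin replicate 1 (0.115) or neomycin replicate 2 (0.0615). Psmd2 with neomycin had 0.07 ± 0.05, and passed the threshold without PBS replicate 1 (0.12, adjusted p = 0.0259). Psmd4, a ubiquitin receptor, averaged 118 ± 1.73, 101 ± 1.69 and 111 ± 5.08 FPKM with cisplatin, neomycin and PBS. Its fall with neomycin (-0.13 ± 0.04) was lost after quantile normalization and without PBS replicate 1 (adjusted p = 0.0536). It remained called with TMM factors and with median centring. The cisplatin value of Psmd4, 0.09 ± 0.04, passed the threshold without PBS replicate 1 (0.0107) and, as lower, after quantile normalization (-0.11, adjusted p = 0.021).

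In the lid, which holds the deubiquitinating enzyme of the particle, 6 of 8 subunits rose and 2 fell with cisplatin, and 1 rose and 6 fell with neomycin. Of all tested genes 47.5% rose and 30.5% fell with cisplatin, and 37.5% rose and 28.7% fell with neomycin. The cisplatin median of 0.15 was no more than 0.02 under any of the 3 scalings, and 2 rises (Psmd8 and Psmd13) and 2 falls (Psmd3 and Psmd14) remained called under all of them. Of all tested genes 35.8% remained higher and 30.3% lower with cisplatin, and the lid counts that remained lie near or below these shares. With neomycin 5 falls remained, where 28.2% of all tested genes did, and the lid median lay between -0.28 and -0.17. Psmd14, the deubiquitinating enzyme itself, was the only member called lower with both drugs in the values as deposited. It had 72.8, 66.0 and 68.5 FPKM with cisplatin, 49.9, 48.2 and 48.7 FPKM with neomycin, and 85.2, 83.3 and 77.6 FPKM in PBS. The 3 groups did not overlap, and its log2 fold change with neomycin, -0.73 ± 0.05 (limma adjusted p = 2.6e-08), was the largest fall of any member in the 3 comparisons. With cisplatin it was -0.24 ± 0.05 (adjusted p = 3.3e-04).

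Psmd3, a structural lid subunit, was the only member that fell with cisplatin and rose with neomycin, although its rise was lost with TMM factors. It had 53.5, 53.2 and 52.0 FPKM with cisplatin, 71.7, 70.8 and 71.0 FPKM with neomycin, and 65.5, 62.8 and 58.2 FPKM in PBS. Psmd8, whose yeast counterpart completes the assembly of the lid, had 192, 186 and 193 FPKM with cisplatin, 117, 119 and 108 FPKM with neomycin, and 133, 119 and 125 FPKM in PBS. Its rise with cisplatin was 0.60 ± 0.05 (limma adjusted p = 5.8e-08). Its fall with neomycin, -0.13 ± 0.05, was lost after quantile normalization, though not with TMM factors or median centring. It was also lost without PBS replicate 1 (adjusted p = 0.113), PBS replicate 3 (0.0561) or neomycin replicate 3 (0.132). Psmd12, another structural subunit, had 76.8, 78.7 and 79.9 FPKM with cisplatin, 52.8, 54.0 and 51.4 FPKM with neomycin, and 74.4, 71.5 and 67.9 FPKM in PBS. Its fall with neomycin was -0.43 ± 0.04 (adjusted p = 1.6e-06), without overlap, while its cisplatin rise of 0.14 ± 0.04 was lost under scaling and without PBS replicate 3 (adjusted p = 0.0599).

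The lid subunits Psmd6, Psmd7 and Psmd11 fell with neomycin and were slightly higher with cisplatin. Psmd6 had 62.8, 58.4 and 61.2 FPKM with cisplatin, 43.1, 43.5 and 41.3 FPKM with neomycin, and 51.4, 52.9 and 56.3 FPKM in PBS. Psmd11 had 53.2, 53.0 and 55.2 FPKM with cisplatin, 39.4, 41.3 and 42.1 FPKM with neomycin, and 48.8, 48.7 and 46.7 FPKM in PBS. Psmd7, which forms a dimer with Psmd14, had 135, 136 and 140.4 FPKM with cisplatin, 118, 112 and 106 FPKM with neomycin, and 128, 126 and 122 FPKM in PBS. No groups overlapped in these 3 genes, their neomycin falls of -0.32, -0.16 and -0.23 (Psmd6, Psmd7 and Psmd11) remained called under all 3 scalings, and their cisplatin rises did not. The cisplatin rise of Psmd7 also missed the threshold without PBS replicate 3 (limma adjusted p = 0.0639) or cisplatin replicate 3 (0.0604). Psmd13 averaged 140.4 ± 6.66, 98.3 ± 3.29 and 101 ± 7.80 FPKM with cisplatin, neomycin and PBS (SD, n = 3 each), and rose with cisplatin alone.

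Of the 3 chaperones that help to build the 19S base, Psmd10 showed the largest difference between the drugs among all members. Psmd10, also known as the oncoprotein gankyrin, had 21.2, 20.4 and 20.5 FPKM with cisplatin, 8.70, 8.06 and 9.01 FPKM with neomycin, and 10.6, 11.4 and 11.5 FPKM in PBS. The groups did not overlap, and on FPKM + 1 the cisplatin level was 2.26-fold that of neomycin (1.18 ± 0.05, limma adjusted p = 1.1e-10). Psmd9 had 64.2, 64.0 and 65.8 FPKM with cisplatin, 87.1, 74.6 and 78.1 FPKM with neomycin, and 85.4, 80.0 and 80.5 FPKM in PBS. It fell with cisplatin (-0.34 ± 0.05, limma adjusted p = 4.7e-05), while its neomycin and PBS libraries overlapped. Psmd5 had 53.3, 53.5 and 58.9 FPKM with cisplatin, 41.3, 40.1 and 38.0 FPKM with neomycin, and 45.1, 48.4 and 46.1 FPKM in PBS, and its cisplatin rise was lost under scaling. The chaperones bind different ATPases. Psmd10 stood at the lowest and Psmd9 at the highest level per length of the 3 in every group, 3.12-fold apart with cisplatin, 9.30-fold with neomycin and 7.35-fold in PBS.

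**Figure D3:**
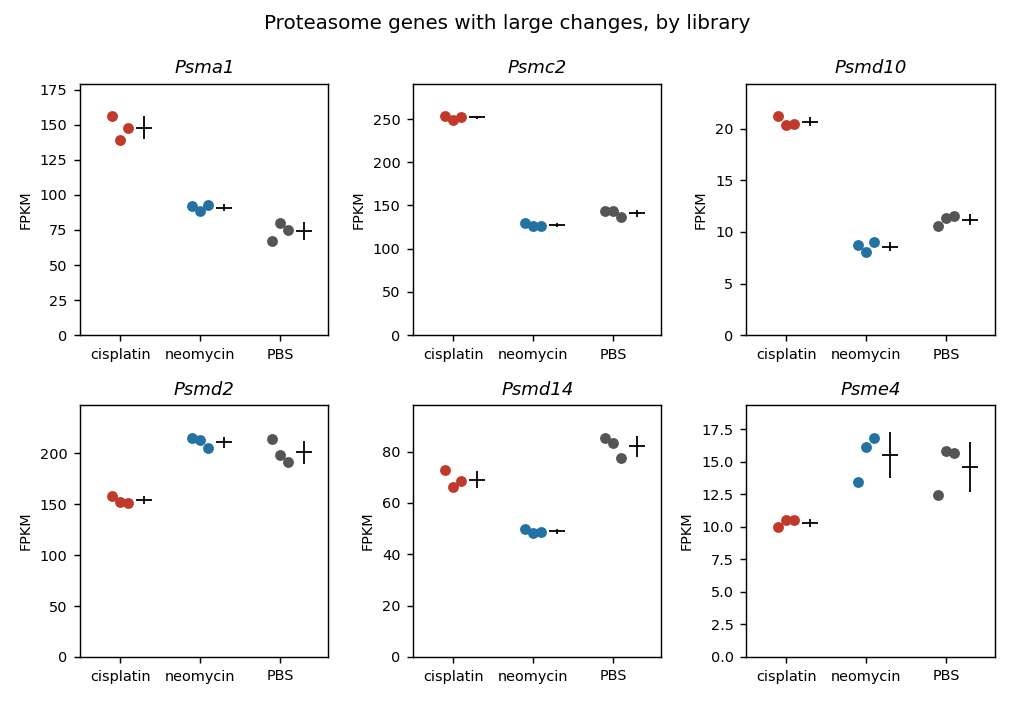
FPKM of Psma1, Psmc2, Psmd10, Psmd2, Psmd14 and Psme4 in each of 3 cisplatin, 3 neomycin and 3 PBS libraries; bars beside the points are mean ± SD, and every axis starts at 0. Psma1, Psmc2 and Psmd10 are highest in the cisplatin libraries, Psmd2 and Psme4 are lowest there, and Psmd14 is lowest with neomycin, at 48.2 to 49.9 FPKM.

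The activators open the core without ubiquitin recognition. Psme1, the alpha subunit of the interferon-induced activator PA28, had 155, 143 and 149.6 FPKM with cisplatin, 148, 144 and 141 FPKM with neomycin, and 131, 116 and 114 FPKM in PBS. Psme2, its beta subunit, had 71.0, 69.3 and 68.0 FPKM with cisplatin, 62.3, 60.8 and 59.9 FPKM with neomycin, and 54.5, 52.3 and 49.4 FPKM in PBS. Both rose with both drugs without overlap with PBS, by 0.31 ± 0.05 and 0.41 ± 0.04 with cisplatin and by 0.26 ± 0.05 and 0.23 ± 0.04 with neomycin. The cisplatin rise of Psme1 was lost after quantile normalization alone of the 3 scalings. Psme3, the nuclear homologue PA28 gamma, had 82.1, 85.8 and 86.6 FPKM with cisplatin, 56.0, 52.1 and 54.6 FPKM with neomycin, and 65.0, 65.1 and 65.2 FPKM in PBS. It thus followed the alpha subunits, with 0.38 ± 0.04 (limma adjusted p = 1.3e-06) and -0.26 ± 0.04 (adjusted p = 9.2e-05), and both calls remained under all 3 scalings. Psme4, which encodes the activator PA200 known for the degradation of acetylated histones, had 9.98, 10.5 and 10.5 FPKM with cisplatin, 13.4, 16.1 and 16.8 FPKM with neomycin, and 12.4, 15.8 and 15.7 FPKM in PBS. Its fall with cisplatin, -0.46 ± 0.09 (adjusted p = 3.4e-04), was the largest of any member with that drug, and replicate 1 of the neomycin and of the PBS group lay below the others of its group.

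Set side by side, 18 of the 41 tested genes rose with cisplatin and fell with neomycin (43.9%, against 13.5% of all tested genes), and 8 rose with both (19.5%, against 17.8%). The reverse, lower with cisplatin and higher with neomycin, was seen for Psmd3 alone (2.44%, against 11.7%), and Psmd14 alone fell with both (2.44%, against 9.30%). The 18 were 5 alpha subunits, Psmb2, 3 ATPases (Psmc2, Psmc4 and Psmc6), Psmd1, 5 lid subunits (Psmd6, Psmd7, Psmd8, Psmd11 and Psmd12), Psmd5, Psmd10 and Psme3. With both calls required under all 3 scalings, 8 were left (19.5%, against 9.87% of all tested genes): Psma3, Psma4, Psma6, Psma7, Psmc2, Psmc6, Psmd10 and Psme3. The 8 that rose with both drugs were Psma1, Psmb4, Psmb5, the 3 inducible subunits and Psme1 and Psme2. Under all 3 scalings Psma1, Psmb8 and Psme2 remained (7.32%, against 10.3% of all tested genes), Psmd14 remained among those lower with both (9.11% of all tested genes), and none was left in the reverse class (9.02%). A further 7 rose with cisplatin alone, 3 fell with cisplatin alone (Psmd2, Psmd9 and Psme4) and 2 fell with neomycin alone (Psmb7 and Psmd4). Passing the threshold with 1 drug and not with the other does not by itself show that the drugs differ, and the direct comparison is given above.

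Summed over the 42 genes, proteasome transcripts took 0.730, 0.713 and 0.730% of the reads with cisplatin, 0.584, 0.573 and 0.564% with neomycin, and 0.623, 0.606 and 0.588% in PBS. The cisplatin libraries lay above the others without overlap, and the neomycin libraries below PBS without overlap. The summed FPKM of the ATPases averaged 1119 ± 15.6 with cisplatin, 716 ± 31.3 with neomycin and 776 ± 39.7 in PBS, and that of the alpha subunits 1029 ± 34.3, 652 ± 18.1 and 744 ± 21.2 (SD, n = 3 each). The constitutive beta subunits summed to 1298 ± 9.71, 1134 ± 37.8 and 1147 ± 56.7 FPKM. Subunits that enter the particle in equal numbers had unequal transcript levels per length: in PBS the alpha subunits ran from 43.5 (Psma3) to 211 FPKM (Psma7), a 4.85-fold range, and the ATPases from 36.9 (Psmc6) to 241 FPKM (Psmc3), a 6.54-fold range. The ranges were of like size with the drugs, at 4.60-fold and 4.72-fold among alpha subunits and 6.83-fold and 7.80-fold among ATPases with cisplatin and neomycin. The rat RefSeq table names 49 pseudogenes or like genes for 18 of the 42, none of which appears by that name in the deposited table, and the sources used here do not say how reads that fit several copies were treated. Of the 41 tested genes 34 had all cisplatin libraries above all PBS libraries and 5 had them below (48.7% and 31.5% of all tested genes), and with neomycin 8 and 21 (38.4% and 29.1%). Between the drugs 31 genes were higher and 6 lower with cisplatin without overlap (45.7% and 37.6%).

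Of 9 assembly factors and inhibitors outside the Psm symbols, 4 rose and 2 fell with cisplatin, and 4 fell with neomycin. Of all tested genes 47.5% rose and 30.5% fell with cisplatin, and 37.5% rose and 28.7% fell with neomycin, and the cisplatin counts lie near these shares. Under all 3 scalings 2 rises and 2 falls remained with cisplatin, and the 4 falls with neomycin, where 35.8% and 30.3% of all tested genes remained with cisplatin, and 28.6% and 28.2% with neomycin. Pomp, the maturation factor of the core, had 444, 432 and 475 FPKM with cisplatin, 256, 249.6 and 250.3 FPKM with neomycin, and 283, 295 and 293 FPKM in PBS. Akirin2, which brings proteasomes into the nucleus, averaged 69.2 ± 0.603 FPKM with cisplatin, 31.3 ± 0.812 FPKM with neomycin and 39.2 ± 3.45 FPKM in PBS (SD, n = 3 each). Both rose with cisplatin (0.63 ± 0.04 and 0.81 ± 0.06) and fell with neomycin (-0.20 ± 0.04 and -0.31 ± 0.06) under every scaling. Ecpas, which holds core and 19S particle together, fell with both drugs (-0.65 ± 0.05 with cisplatin and -0.48 ± 0.05 with neomycin). Psmg1, a chaperone of the alpha ring, had -0.08 ± 0.05 (limma adjusted p = 0.117) and -0.10 ± 0.05 (adjusted p = 0.0763), and passed the threshold as lower with cisplatin under all 3 scalings and with neomycin with TMM factors, with median centring and without PBS replicate 2 (adjusted p = 0.047). Its partner Psmg2 fell with both drugs (-0.19 ± 0.06 and -0.27 ± 0.06).

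Of 14 genes for proteasome-bound enzymes and ubiquitin shuttles, 10 rose and 2 fell with cisplatin, and 3 rose and 9 fell with neomycin. Of all tested genes 47.5% rose and 30.5% fell with cisplatin, and 37.5% rose and 28.7% fell with neomycin. Under all 3 scalings 6 of the 10 rises with cisplatin and all 9 falls with neomycin remained. Of all tested genes 35.8% remained higher with cisplatin and 28.2% lower with neomycin, and the rises that remained with cisplatin lie near that share. Uchl5, a deubiquitinating enzyme of the 19S base, had 19.1, 20.7 and 20.4 FPKM with cisplatin, 7.17, 6.89 and 7.58 FPKM with neomycin, and 8.20, 9.14 and 10.1 FPKM in PBS. The cisplatin level was above all others without overlap (1.06 ± 0.07 against PBS, limma adjusted p = 4.8e-09), so Uchl5 and Psmd14, both deubiquitinating enzymes of the 19S particle, changed in opposite directions with cisplatin. The shuttle Rad23b averaged 152 ± 4.53 FPKM with cisplatin, 97.7 ± 0.525 FPKM with neomycin and 150.0 ± 3.58 FPKM in PBS, with a log2 fold change of -0.61 ± 0.04 with neomycin. With cisplatin Rad23b had 0.02 ± 0.04, and passed the threshold as lower under all 3 scalings (-0.18 to -0.11). Sem1, a small subunit of the 19S lid, also fell with neomycin (-0.38 ± 0.06, limma adjusted p = 1.2e-04). Zfand2b, a zinc finger protein that binds the proteasome, rose with both drugs, by 0.82 ± 0.06 and 0.39 ± 0.06. The ubiquitin ligase Ube3a rose with neomycin (0.55 ± 0.08) and Ube3c fell with cisplatin (-0.44 ± 0.04).

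Among 11 tested regulators of proteasome gene transcription, 8 rose and 3 fell with cisplatin, and 1 rose and 6 fell with neomycin. Of all tested genes 47.5% rose and 30.5% fell with cisplatin, and 37.5% rose and 28.7% fell with neomycin. The count of falls with cisplatin lies near this share. Under all 3 scalings 6 of the 8 rises with cisplatin and the other counts remained. Of all tested genes 35.8% remained higher and 30.3% lower with cisplatin, and 28.6% and 28.2% with neomycin. Nfe2l1, the gene of NRF1, had 52.5, 52.5 and 51.8 FPKM with cisplatin, 71.3, 73.1 and 75.8 FPKM with neomycin, and 88.7, 83.0 and 83.7 FPKM in PBS. The 3 groups did not overlap, and the transcript fell with cisplatin (-0.69 ± 0.04, limma adjusted p = 2.3e-09), where most subunits rose, and with neomycin (-0.21 ± 0.04, adjusted p = 5.2e-04). NRF1 is known to be controlled after translation, and its protein was not measured. Nfe2l2, the gene of the related factor NRF2, fell with both drugs (-0.43 ± 0.04 and -0.49 ± 0.04). The small MAF partners Mafk and Mafg rose with cisplatin, by 1.25 ± 0.06 and 0.78 ± 0.05. Nfyb, a subunit of the CCAAT-binding factor NF-Y, had 27.5, 25.6 and 28.4 FPKM with cisplatin, 7.57, 9.59 and 9.11 FPKM with neomycin, and 10.9, 12.0 and 12.3 FPKM in PBS. Foxo4 moved in the opposite way, with -0.49 ± 0.06 and 0.65 ± 0.06.

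**Figure D4:**
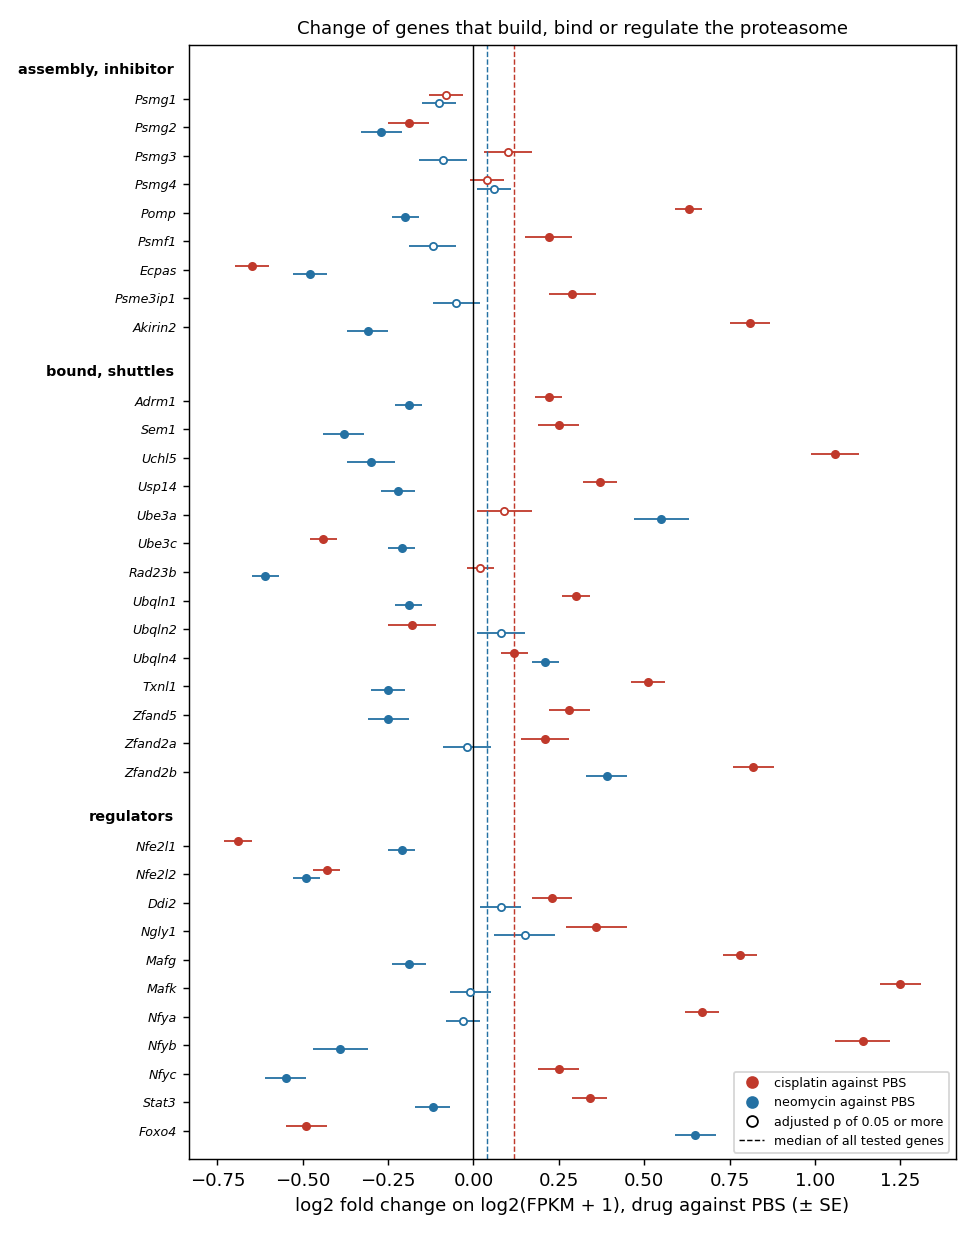
Log2 fold change on log2(FPKM + 1) of genes that build, bind or regulate the proteasome, with cisplatin (red) and neomycin (blue) against PBS; bars are ± SE, open points missed the threshold of 0.05, and dashed lines mark the median of all tested genes (0.12 and 0.04). Mafk (1.25), Nfyb (1.14) and Uchl5 (1.06) lie farthest right with cisplatin, and Nfe2l1 (-0.69) and Ecpas (-0.65) farthest left.

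Of 10 genes of the VCP segregase, which extracts ubiquitylated proteins for the proteasome, 6 rose and 3 fell with cisplatin, and 2 rose and 5 fell with neomycin. The shares of all tested genes were 47.5% and 30.5% with cisplatin, and 37.5% and 28.7% with neomycin, and hold also for the ubiquitin and COP9 genes that follow. Its cofactor Ufd1 averaged 74.8 ± 2.80 FPKM with cisplatin, 36.3 ± 0.989 FPKM with neomycin and 47.5 ± 2.18 FPKM in PBS (SD, n = 3 each), and Nploc4, which binds Ufd1, averaged 23.8 ± 1.06, 35.5 ± 0.0668 and 37.3 ± 0.791 FPKM. With cisplatin these partners moved apart, by 0.64 ± 0.05 and -0.63 ± 0.04. Faf1, another cofactor, fell with both drugs (-0.82 ± 0.05 and -0.54 ± 0.05). Of 6 ubiquitin and ubiquitin-activating genes 2 rose and 2 fell with cisplatin, and 2 rose and 1 fell with neomycin. The polyubiquitin gene Ubb averaged 666 ± 8.47 FPKM with cisplatin, 940.0 ± 41.6 FPKM with neomycin and 829 ± 9.73 FPKM in PBS, and its rise with neomycin was lost with TMM factors. Rps27a, a ribosomal protein fused to ubiquitin, had 349, 375 and 351 FPKM with cisplatin, 196, 294 and 277 FPKM with neomycin, and 369, 378 and 388 FPKM in PBS, with neomycin replicate 1 far below the others; without that library its log2 fold change between the drugs was 0.32 in place of 0.51. The COP9 signalosome is built like the lid, and of its 10 genes 7 rose and 2 fell with cisplatin, and 1 rose and 4 fell with neomycin, with Cops3 at 0.51 ± 0.04 and -0.27 ± 0.04. For VCP genes 4 rises and 3 falls with cisplatin remained under all 3 scalings and 4 falls with neomycin, and for COP9 4 rises and 2 falls with cisplatin and 1 rise and 4 falls with neomycin. Of the ubiquitin genes 2 falls remained with cisplatin, and 1 rise and 1 fall with neomycin. With so few genes in each list, these counts are a description alone, beside 35.8% of all tested genes that remained higher and 30.3% lower with cisplatin, and 28.6% and 28.2% with neomycin.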

How the data were processed

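Libraries were made from total RNA with an mRNA kit, per the labels' protocols. The authors deposited a table of FPKM values for 19608 genes, with no counts; no source used here names the aligner or counter, and mm10 stands in the submitters' processing notes. Groups and replicate numbers came from the sample titles. Within a library each value is a multiple of the FPKM of 1 read, from which whole reads were worked out for 19608 of 19608 genes (100.0%) within 0.001 of a read; they served for depth and for voom. Differences were tested with limma 3.58.1 in R 4.3.3 on log2(FPKM + 1), which understates the change of low genes, with a mean-variance trend, 1 mean per group, all 9 libraries and genes averaging 1 FPKM or more (10532), followed by Benjamini-Hochberg adjustment over all of them within each comparison. The script was tested on simulated data. Ratios were compared by exact permutation tests.

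Values of every library are given for the catalytic and inducible subunits, the activators, the 4 largest rises and falls per comparison and members called in opposite directions by the drugs; other lists give up to 4 called genes per comparison, with Nfe2l1, Nfe2l2, Pomp and Psmg1. Tap1, a neighbour of Psmb8 and Psmb9, was named after its values were seen. The members, lists and tests were chosen with earlier results of these data known. Alternatives were a pseudocount of 0.1, no filter, TMM factors, quantile normalization, median centring, the replicate number as a block, voom, and leaving out each library in turn. Same-numbered libraries did not deviate together throughout, so the main test has no block. Psma8 was not analysed here, and Psmb11 was below the filter. A gene of the list of bound and shuttle genes is not reported here. Promoters came from RefSeq (GRCr8), with 5 members without an entry. The marker lists of hair cells and leukocytes were used as levels only, and calls are given for the fibroblast markers.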

Additional observations from a re-analysis of the deposited data

How the results depend on the processing

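The 3 scalings moved the counts most. With cisplatin against PBS 33 rises became 21 with TMM factors, 18 with quantile normalization and 22 with median centring, where 37.2%, 38.6% and 38.0% of all tested genes rose. The 5 falls became 9 with quantile normalization (38.0% of all tested genes), and between the drugs 6 lower genes became 10 (40.1%). The other counts stayed within 1.5 times under every alternative run. Leaving out each library in turn gave 28 to 34 rises and 5 falls each time with cisplatin, 9 to 11 rises and 19 to 21 falls with neomycin, and 29 to 30 higher and 6 lower genes between the drugs. With the replicate number as a block the counts were 33, 5, 9, 22, 30 and 6 in the same order, and the block brought 2 further calls (Psmc5 with neomycin, adjusted p = 0.0353, and Psmb5 between the drugs, 0.0372). Same-numbered libraries deviated together with correlations of -0.05 to 0.30, so the numbers were not taken to pair the samples.

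Signs turned under scaling for small changes. For cisplatin against PBS with TMM factors, Psmb6 stood at -0.03, Psmb7 at -0.13, Psmb9 at -0.03, Psmc4 at -0.03, Psmd7 at -0.02, Psmd12 at -0.01, Rad23b at -0.13, Tap1 at -0.01 and Uba1 at -0.03. With quantile normalization, Psma5 stood at -0.01, Psmb6 at -0.09, Psmb7 at -0.14, Psmb9 at -0.05, Psmc4 at -0.07, Psmd4 at -0.11, Psmd6 at -0.00, Psmd7 at -0.08, Psmd11 at -0.03, Psmd12 at -0.08, Nsfl1c at -0.10, Rad23b at -0.18, Tap1 at -0.02 and Uba1 at -0.08. With median centring, Psmb6, Psmb9, Psmc4 and Uba1 stood at -0.01 and Rad23b at -0.11. For cisplatin against neomycin with quantile normalization, Psmb3 stood at -0.21, Psmb5 at -0.13, Psmb6 at -0.15, Psmd4 at -0.03, Psme1 at -0.18, Psme2 at -0.00, Nfe2l2 at -0.13, Psmg1 at -0.17 and Uba1 at -0.18. The cause was not tested.

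The tested members had at least 289 reads in every library, and the effect of depth on their calls was not tested. Psmb11, with 0 to 2 reads per library, was below the filter and had no test. The simulated data had the same dispersion for every gene and left 10332 of 10532 genes unchanged, whereas most tested genes of the real data were called. Their recovery thus checks the script and does not give the power of the test on these data. In the simulated data, 36 of 50 genes changed 1.2-fold were recovered for cisplatin against PBS. For neomycin against PBS 37 of 50 were recovered, and for cisplatin against neomycin 26 of 50. At 1.5-fold the numbers were 50, 49 and 50 of 50. With 3 libraries a group, no exact permutation test can go below 0.1.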
